A study of Mus musculus with 16 samples.

Results

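Voltage-gated calcium channels open when the membrane of a cardiomyocyte (CM) depolarizes and let calcium flow into the cell. Each channel is built around a pore-forming α1 subunit. In the L-type and other high-voltage-activated channels, an intracellular β subunit and a largely extracellular α2δ subunit join the α1 subunit and set its traffic to the membrane and its gating. L-type channels carry the calcium current that triggers contraction, whereas T-type channels open at more negative potentials and are known from pacemaking and from the fetal heart. The genes followed here were the L-type α1 genes *Cacna1c* (Cav1.2) and *Cacna1d* (Cav1.3), the T-type α1 genes *Cacna1g* (Cav3.1) and *Cacna1h* (Cav3.2), the β genes *Cacnb1*, *Cacnb2* and *Cacnb3*, and the α2δ genes *Cacna2d1* and *Cacna2d2*. Members were found by the gene name that the microarray gives to each probe, which selected 9 of 34821 gene names and 17 of 55681 probes. *Cacna1c*, *Cacnb1* and *Cacnb3* had 1 probe each, *Cacna1h* and *Cacnb2* had 3, and the remaining genes had 2.

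The cells came from the hearts of wild-type CD1 mice and were sorted by flow cytometry for CD49f, the α6 integrin (ITGA6), at their surface. At embryonic day (E) 15.5, ErbB-2+/CD49flow (EL) and ErbB-2+/CD49fhigh (EH) cells were collected. At postnatal day (P) 2, hearts were first depleted of non-myocytes and then sorted into CD49flow (PL) and CD49fhigh (PH) cells, so that the groups of different age also differ in how they were isolated. Hearts were pooled for each sort, 20 to 30 embryonic or 15 neonatal ones, and each fraction held 50000 cells or more. Each of the 4 groups holds 4 samples, which carry the numbers 2, 3, 6 and 8 at E15.5 and 2, 3, 4 and 5 at P2, each on its own one-color microarray. Values for a group are given in the order of these numbers. The fractions are sorted cells and not dissected chambers.

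A signal below is a normalized intensity on a linear scale. A change is the mean log2 signal of one group minus that of another, with the standard error (SE) of the limma fit, and p-values are adjusted over all probes. The scanner software marks each spot that is well above background, and a probe is called detected here if this held on all 4 microarrays of at least 1 group. Of the 17 probes, 14 were detected, which covered all 9 genes, 10 were well above background on all 16 microarrays and 2 on none. The 2 probes never above background were probe 3 of *Cacna1h* and probe 2 of *Cacna2d2*. Of all probes, a median of 39.1% per EL, 42.3% per EH, 37.6% per PL and 38.4% per PH microarray were well above background, and no member probe was saturated. Signals of different probes are not compared as levels of their genes, since probes differ in how well they bind. Probe 1 of a gene is its brightest probe.

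The sorting label was checked against marker genes of both chambers. *Nppa*, which encodes atrial natriuretic peptide, gave 11561 ± 2948 (SD, n = 4) for EL against 230720.0 ± 12311 for EH, and 17432 ± 10523 for PL against 304600.0 ± 24940.0 for PH. All 7 atrial markers were higher in the ITGA6high cells of both stages. *Irx4*, a ventricular transcription factor gene, gave 1995 ± 148 for EL against 404 ± 51.8 for EH, and 3083 ± 528 for PL against 64.5 ± 7.79 for PH, and was well above background on every microarray. All 5 ventricular markers were lower in the ITGA6high cells of both stages. Since these are bulk samples, fewer cells of a type and less RNA per cell cannot be told apart.

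The probes are 60 bases long and their mm9 positions are those of the scanner files. The files do not say whether a position lies in an exon or in an untranslated part. The 3 probes below, for α1 genes, each hold a single reading frame without an internal stop codon, and 2 of them end in a stop codon, printed in capitals. They are shown as sequences read for the pores described first. At P2 *Cacna1c* was lower and *Cacna1d* higher in PH than in PL, the latter by its probe 1, which is not printed. The printed probe 2 of *Cacna1d* had an adjusted p of 0.089 in that limma comparison.
Cacna1c probe 1, chr6:118544079-118544138, minus strand: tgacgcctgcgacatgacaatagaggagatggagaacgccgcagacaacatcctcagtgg
Cacna1d probe 2, chr14:30855259-30855318, minus strand: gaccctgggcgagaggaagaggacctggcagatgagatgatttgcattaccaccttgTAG
Cacna1g probe 1, chr11:94270459-94270518, minus strand: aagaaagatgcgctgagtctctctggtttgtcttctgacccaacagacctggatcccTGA

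**Figure D1:**
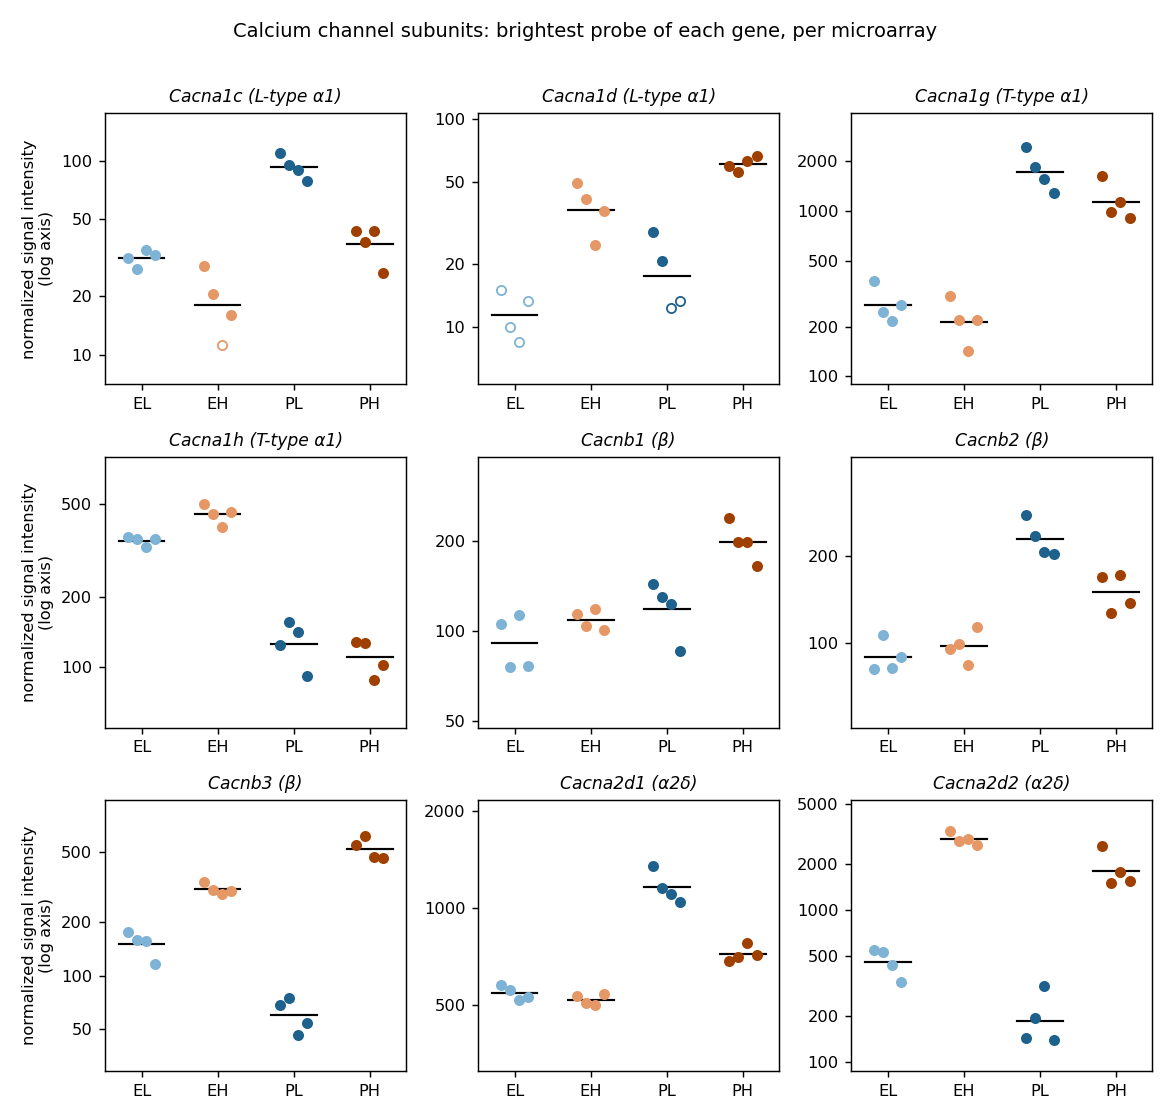
Normalized signal intensity (log axis) of the brightest probe of each gene on the 16 microarrays, 4 per group. Filled points were well above background, open points were not, and the lines mark the means of the log2 signals. Cacna2d2, Cacnb3 and Cacna1d sit higher in EH and PH than in the low fraction of the same stage, whereas Cacna1g, Cacna1c, Cacnb2 and Cacna2d1 sit highest in PL.

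The first question was which subunits differ between the ITGA6high and the ITGA6low cells. At E15.5, *Cacna2d2*, *Cacna1d* and *Cacnb3* were higher in EH than in EL, and no probe passed the test in the other direction. Here 3 of 17 probes passed the limit, an adjusted p no larger than 0.05, which 8.1% of all probes did (4.27% higher and 3.83% lower). Among them *Cacna2d2* also differed by more than 3-fold. *Cacna1d* has a fitted change past 3-fold but was not well above background in EL, so that its fold has only a bound, at least 2.35-fold. A fitted change of 3-fold or more together with the limit on p, counted without regard to background, was found for 1.63% of all probes (1.17% higher and 0.454% lower). The samples of EL and EH did not overlap for 5 of 17 probes, against 16.1% of all probes. At P2, 8 of 17 probes from 8 of the 9 genes passed the limit, against 11.6% of all probes (6.15% higher and 5.41% lower). *Cacna2d2*, *Cacnb3*, *Cacna1d* and *Cacnb1* were higher in PH, and *Cacna1c*, *Cacna1g*, *Cacnb2* and *Cacna2d1* were higher in PL. *Cacna1g* passed by its dimmer probe 2 alone, for which PL and PH overlapped, and its probe 1 missed the limit (adjusted p = 0.201). The 3 probes whose fitted change was also 3-fold or more, those of *Cacna2d2*, *Cacnb3* and *Cacna1d*, were all higher in PH. That of *Cacna1d* was well above background on 2 of 4 PL microarrays, so that its fold is not exact. Of all probes, 2.65% met both limits (1.73% higher and 0.916% lower). PL and PH did not overlap for 9 of 17 probes, against 12.8% of all probes. All members that passed a limit were among the 14 detected probes. Among all detected probes, 18.7% passed the limit on p in EH against EL and 26.2% in PH against PL. The median change of the 14 detected member probes was 0.04 in EH against EL and -0.33 in PH against PL, beside -0.05 and -0.02 over all detected probes.

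At P2 the L-type α1 genes went in opposite directions. For *Cacna1d*, which carries a current that activates at low voltages in atrial and sinoatrial cells, probe 1 had signals of 15.0, 9.99, 8.42 and 13.3 in the EL samples and was well above background on none of these microarrays. In EH the signals were 49.0, 41.1, 24.7 and 36.0, all well above background. They were 28.6, 20.6, 12.3 and 13.2 in PL, where 2 of 4 were well above background, and 59.4, 55.6, 63.2 and 66.8 in PH. Neither pair of fractions overlapped. PH was higher than PL by 1.80 ± 0.28 (log2, SE; a fitted 3.47-fold, adjusted p = 0.000462). That fold is not exact. Samples 4 and 5 of PL, at 12.3 and 13.2, lay below the lowest signal well above background on their microarrays, 22.7 and 23.2. EH was higher than EL by 1.68 ± 0.28 (adjusted p = 0.0013), and since EL was not well above background the fold-change has only a bound, at least 2.35-fold higher. That bound sets the mean of EH against, on each EL microarray, the higher of the lowest signal well above background and the probe's own signal.

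Whether the fitted change of *Cacna1d* in EH against EL passed 3-fold rested on single microarrays and on the slide. The change was 1.54 without sample 6 of EL and 1.54 without sample 2 of EH, and 1.51 with the slide in the fit, below 3-fold in each case, while it passed the limit on p in all of them. Probe 2, which lies 1486 bases away, was less clear. Its signals were 17.2, 10.5, 41.6 and 22.4 for EL samples, 71.5, 29.6, 25.2 and 18.6 for EH samples, 14.3, 14.7, 14.8 and 23.0 for PL samples and 46.6, 30.7, 34.4 and 43.3 for PH samples. EL and EH overlapped, with a difference of 0.64 and a 95% interval from -0.27 to 1.55. PL and PH did not overlap, and the difference of 1.23 missed the limit over all probes (adjusted p = 0.089) and passed it when detected probes alone were tested (adjusted p = 0.0345). PL was not well above background on any microarray, which makes PH at least 1.98-fold higher.

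*Cacna1c* encodes the main L-type pore of the working myocardium. Its signals were 31.4, 27.7, 34.7 and 32.8 for EL samples, 28.7, 20.6, 11.2 and 16.02 for EH samples, 110.4, 96.0, 89.7 and 78.4 for PL samples and 43.7, 38.3, 43.7 and 26.4 for PH samples. Every PL sample lay above every PH sample, whereas the 2 embryonic groups overlapped in 1 sample, number 2 of EH. PH was lower than PL by a log2 change of -1.32 ± 0.24 (2.49-fold, adjusted p = 0.00199). Sample 6 of EH, at 11.2, was not well above background, and the lowest signal well above background on its microarray was 12.8. In EH against EL the change was -0.80 ± 0.24 (a fitted 1.75-fold, which is not exact) with an adjusted p of 0.0621. It passed the limit with the slide in the fit (adjusted p = 0.0318), with detected probes alone (0.0236), in the methods' test (0.0339), without sample 2 of EH (0.0105) and without sample 5 of PH (0.0468). The changes at both stages were not shown to differ in the main fit, since the difference between them was -0.51 with a 95% interval from -1.25 to 0.23. With normexp background correction the difference was -0.39 and passed the limit (adjusted p = 0.0479).

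Of the T-type α1 genes, *Cacna1g* was measured by probes 596 bases apart. Probe 1 gave 376, 245, 216 and 269 for EL samples, 305, 219, 143 and 218 for EH samples, 2419, 1827, 1551 and 1276 for PL samples and 1616, 986, 1121 and 902 for PH samples. The fractions overlapped at both stages for this probe, although each numbered sample of the high fraction lay below the low sample of the same number. The log2 change was -0.34 ± 0.26 at E15.5 and -0.61 ± 0.26 at P2 (adjusted p = 0.201). With the sample number as a block the P2 change passed (adjusted p = 0.0056), but the sample numbers are not known to pair the samples. Probe 2 gave 166, 108, 117.2 and 115 for EL samples and 97.5, 78.99, 62.6 and 95.5 for EH samples, without overlap, with a change of -0.60 ± 0.26 that missed the limit (adjusted p = 0.229). Probe 2 was lower in PH than in PL by a change of -1.05 ± 0.26 (adjusted p = 0.0147), with 846, 609.8, 581 and 396 in PL and 413, 207, 323 and 231 in PH, where the highest PH sample lay above the lowest PL sample. Without sample 3 of PH it no longer passed (-0.90, adjusted p = 0.0519).

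*Cacna1h*, the other T-type pore, did not pass the limit between the fractions at either stage. Probe 1 had 363, 354, 328 and 353 in EL and 501, 454, 399 and 463 in EH, groups that did not overlap, with a log2 change of 0.38 ± 0.16 (adjusted p = 0.213). Without overlap in either direction were 16.1% of all probes in this comparison. In PL the signals were 125, 156, 142 and 91.2 and in PH 129, 127, 88.0 and 102, with a 95% interval of the difference from -0.53 to 0.15. Probes 2 and 3 lie 58583 and 57590 bases from probe 1. Probe 2 was dim and uneven, with 93.4 in sample 8 of EL, 86.2 in sample 5 of PL and 51.9 in sample 5 of PH against 5.92 to 38.2 in the other samples of those groups. Probe 3 stayed between 3.45 and 3.75 and was never well above background. In RefSeq's annotation *Tpsg1*, on the plus strand, overlaps *Cacna1h*, and the probes lie on the minus strand.

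Among the β genes, *Cacnb3* had its highest signals in PH and its lowest in PL. Its signals were 177, 159, 156 and 115 for EL samples, 339, 306, 288 and 299 for EH samples, 68.4, 74.8, 46.4 and 53.8 for PL samples and 548, 612, 464 and 463 for PH samples. No 2 of the 4 groups overlapped. EH was higher than EL by 1.03 ± 0.16 (2.05-fold, adjusted p = 0.000908) and PH higher than PL by 3.12 ± 0.16 (8.67-fold, adjusted p = 2.22e-08). The difference between both changes was itself 2.08 ± 0.23 (adjusted p = 0.00018). In that test of stage dependence 2 of 17 probes passed the limit on p, *Cacnb3* with a positive and *Cacna2d1* with a negative difference, against 3.15% of all probes (1.81% positive and 1.35% negative). *Cacnb3* also passed 3-fold, as did 1.2% of all probes (0.602% positive and 0.602% negative). Of the 5 ventricular markers, 3 passed the limit on p in the same test with a negative difference and 0 with a positive one. Of the 7 atrial markers, 2 passed with a positive difference and 0 with a negative one.

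*Cacnb2* encodes the main cardiac β subunit. Probe 1 gave 81.2, 106, 81.9 and 89.6 for EL samples, 95.01, 98.9, 83.9 and 114 for EH samples, 278, 235, 207 and 204 for PL samples and 170.1, 127, 172 and 138 for PH samples. The embryonic fractions overlapped and differed by 0.13 ± 0.14, with a 95% interval from -0.17 to 0.42. PH lay below PL without overlap, by a change of -0.61 ± 0.14 (1.52-fold, adjusted p = 0.00907). Probe 2, whose coordinates span more than its 60 bases (chr2:14882385-14885558), had a similar change of -0.58 ± 0.29 that did not pass the limit (adjusted p = 0.287). Its PL signals were 76.0, 101, 261 and 173 and its PH signals 82.8, 98.003, 93.0 and 91.5, so that sample 2 of PL lay below and samples 3, 4 and 5 above all PH samples. Probe 3, 381094 bases from probe 1, was well above background on 1 microarray, sample 4 of PH.

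*Cacnb1*, known best as the β subunit of skeletal muscle, had 105, 75.9, 113 and 76.4 for EL samples, 114, 104, 119 and 101 for EH samples, 144, 129, 123 and 85.4 for PL samples and 239, 198, 199 and 165 for PH samples. PH lay above PL without overlap, by 0.75 ± 0.18 (1.68-fold, adjusted p = 0.0111). The embryonic fractions overlapped and differed by 0.26, with a 95% interval from -0.12 to 0.64.

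The α2δ genes also parted. *Cacna2d2* had 549, 529, 437 and 336 for EL samples, 3326, 2869.6, 2924 and 2704 for EH samples, 144, 195, 317 and 140.3 for PL samples and 2640.2, 1517, 1778 and 1545 for PH samples. Both high fractions lay far above both low fractions, and no 2 groups overlapped. EH was higher than EL by 2.70 ± 0.25 (6.49-fold, adjusted p = 1.2e-05), and PH higher than PL by 3.28 ± 0.25 (9.69-fold, adjusted p = 8.67e-07). These were the largest changes of the 17 probes between the fractions at either stage. Its changes at E15.5 and P2 were not shown to differ, with a difference of 0.58 and a 95% interval from -0.19 to 1.35. A second probe, 370 bases further along the plus strand, stayed between 3.45 and 4.75 and was well above background on 0 of 16 microarrays.

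*Cacna2d1*, the gene of the α2δ subunit usually found with Cav1.2 in the ventricle, had 578, 555, 519 and 530.0 for EL samples, 532, 507, 499 and 539 for EH samples, 1353, 1154, 1102 and 1047 for PL samples and 685, 705, 777 and 717 for PH samples. The embryonic fractions overlapped, with a change of -0.07 and a narrow 95% interval from -0.24 to 0.10. PH lay below PL by a change of -0.69 ± 0.08 (1.61-fold, adjusted p = 2.78e-05). The difference between the stages was -0.62 ± 0.11 (adjusted p = 0.00591). It missed the limit under scaling of microarrays to the 75th percentile (-0.59, adjusted p = 0.119). Probe 2 had the same signs. PH against PL gave -0.47 ± 0.17 without overlap (adjusted p = 0.122), a change that passed the limit with the sample number as a block. The sample numbers are not known to pair the samples. For the difference between the stages probe 2 gave -0.42 ± 0.25 (adjusted p = 0.571).

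**Figure D2:**
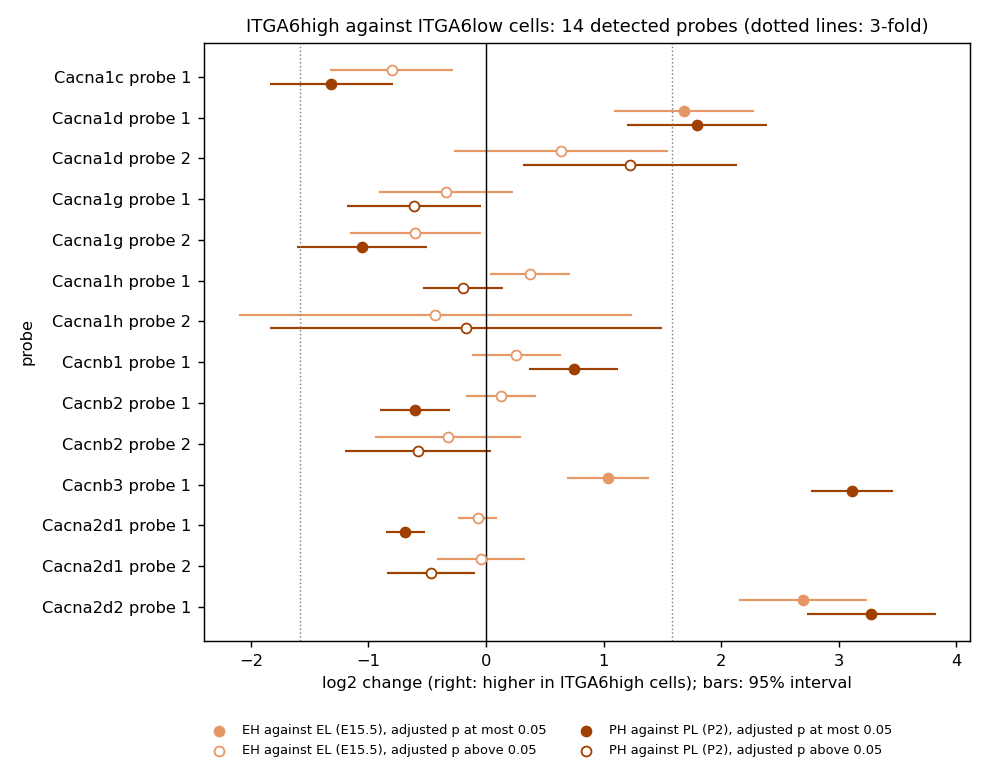
Log2 change of ITGA6high against ITGA6low cells at E15.5 and P2 for the 14 detected probes, with 95% intervals of the limma fit. Filled points have an adjusted p of at most 0.05 and dotted lines mark 3-fold. Cacna2d2 lies beyond 3-fold at both stages, Cacnb3 and Cacna1d probe 1 at P2. The P2 point of Cacna1d probe 1 is a fitted value, with 2 of 4 PL microarrays well above background. The E15.5 point of Cacna1d probe 1 is a fitted value against a group not well above background, with a bound of at least 2.35-fold, and the points of Cacna1c, Cacna1g and Cacna2d1 lie left of 0.

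The embryonic microarrays lay on 2 slides, which were scanned on different days and both held EL and EH. Within the slide with 2 EL and 3 EH samples, the log2 change was 2.78 for *Cacna2d2*, 1.56 for probe 1 of *Cacna1d*, 1.14 for *Cacnb3* and -0.60 for *Cacna1c*. Within the slide with 2 EL samples and 1 EH sample, it was 2.60, 1.43, 0.87 and -1.46 for these genes. All 4 kept their direction on both slides. The P2 microarrays shared 1 slide that held both fractions.

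Markers of other cell types moved with the sort at E15.5. Of 8 endothelial and endocardial markers, 5 were higher in EH than EL and 0 lower. *Cdh5*, the endothelial cadherin, was at 6.67 ± 5.19 and well above background on no microarray for EL, and at 212 ± 175 for EH. Of 8 such markers, between 7 and 8 were well above background in each EH sample and between 2 and 4 in each EL sample. Their summed signal was 1065 to 1229.5 per EL sample and 1007 to 2626 per EH sample, and the brightest probe was that of *Kdr*. Of 6 leukocyte markers, 2 were higher in EH, and 1 without sample 6 of EH. That sample had a summed leukocyte signal of 7020 against 882 to 1520 in the other EH samples, and sample 6 of EL had 1713 against 504 to 606 in the other EL samples. The summed erythroid signal was also highest in both samples 6, 30387 for EL and 33974 for EH, where the others ran from 3629 to 17584. Sample 6 of EH had the lowest EH signal in probe 1 of *Cacna1c*, *Cacna1d*, *Cacna1g*, *Cacna1h*, *Cacnb2*, *Cacnb3* and *Cacna2d1*, and in probe 2 of *Cacna1g*. Without it the change in EH against EL was 2.70 for *Cacna2d2*, 1.87 for *Cacna1d* probe 1, 1.06 for *Cacnb3* and -0.57 for *Cacna1c*, and the first 3 still passed the limit on p. Of 7 smooth muscle and pericyte markers, 3 were higher and 1 lower. Of 8 fibroblast markers, 0 passed the limit, while the summed signals did not overlap (12833 to 22360 per EL sample, 5437 to 10462 per EH sample), and the median change of the 7 detected ones was -0.92. Under 75th percentile scaling 2 of them, *Col1a1* and *Col1a2*, were lower in EH (adjusted p = 0.0495 and 0.0393). The part of these cells in the differences between EH and EL was not tested. At P2, 0 of the 8 endothelial markers passed the limit between PH and PL, and *Cdh5*, *Tie1* and *Emcn* were well above background on 0 of 8 microarrays. None of the 6 leukocyte markers passed the limit at P2. Of 7 smooth muscle and pericyte markers, 1 was higher and 1 lower in PH. *Cnn1*, the calponin gene, had 1159 ± 277 for PL and 6159 ± 1223 for PH (adjusted p = 7.05e-07), and *Cspg4*, a pericyte marker, 1256 ± 154 for PL and 412 ± 30.8 for PH (adjusted p = 9.53e-08). Of 8 fibroblast markers, 1 was lower in PH, *Postn*, which was well above background on 3 of 4 PL (63.2 ± 35.7) and on 0 of 4 PH microarrays (7.98 ± 4.62), so that PL was at least 3.16-fold higher (adjusted p = 0.00692). The part of these cells in the differences between PH and PL was not tested. Of 10 pacemaker markers, 5 were higher and 1 lower in EH, and 3 and 1 in PH. Higher in both were *Cpne5*, with 924 ± 366 for EL, 8941 ± 2576 for EH, 610.1 ± 339 for PL and 6717 ± 949 for PH, *Smoc2*, and *Vsnl1*, which was not well above background in EL and PL and at least 10.3-fold higher in EH and at least 8.08-fold in PH. *Smoc2* missed the limit at E15.5 under 75th percentile scaling (adjusted p = 0.0958). *Tbx3*, a transcription factor gene of the conduction system, was higher in EH (264 ± 14.97) than EL (166.7 ± 16.4, adjusted p = 0.00196) and lower in PH (87.3 ± 5.41) than PL (143.1 ± 26.2, adjusted p = 0.000865). *Shox2*, of the sinoatrial node, was also higher in EH, with 1 of 4 EH microarrays well above background and none in the other groups. *Tbx18* was lower in EH. *Hcn4* and *Isl1* were well above background on no microarray. The part of such cells was not tested. Of 6 skeletal muscle markers, 2 were higher and 1 lower in EH, and 2 higher and 2 lower in PH, or 1 lower under 75th percentile scaling. Without sample 6 of EL, and likewise without sample 6 of EH, 1 was higher and 1 lower in EH. With all samples in the fit, *Tnnt3*, a fast troponin T gene, and *Myog*, the myogenin gene, were higher at both stages. *Tnnt3* was at 69.8 ± 21.4 in PH and not well above background in PL, at least 3.46-fold (adjusted p = 4.56e-06). *Acta1* had 2426 ± 927 for PL and 834 ± 289.5 for PH (adjusted p = 0.00224). *Myod1* was well above background on no microarray, and the part of such cells was not tested.

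Neuronal and Schwann cells, which also use these channels, were looked for with 10 markers, of which 2 were higher and 1 lower in EH than EL, and likewise in PH than PL. By group means, the brightest probe was that of *Snap25* in EL, EH and PL and that of *Dbh* in PH. The summed signal ran from 2090.1 to 2605 in EL, 2727 to 3337 in EH, 4162 to 10775 in PL and 4638 to 5202 in PH samples. *Stmn2* and *Sox10*, markers of neurons and glia, were well above background on no microarray. *Dbh*, the dopamine β-hydroxylase gene, and *Elavl4* were the 2 that were higher at both stages, of which *Elavl4* missed the limit in EH against EL under 75th percentile scaling (adjusted p = 0.0596). *Dbh* had 94.1 ± 26.7 for EL, 285 ± 49.9 for EH, 890.2 ± 391 for PL and 2456 ± 196 for PH. The part of such cells in the results was not tested. In PL, sample 4 had the highest summed atrial signal, 52192 against 12569 to 25702 in the other 3 samples, and also the highest PL signal of *Cacna2d2*, 317. Without it *Cacna2d2* differed between PH and PL by 3.53 (log2).

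The second question was how the subunits differ between E15.5 and P2 within a fraction. Stage, slide and isolation cannot be told apart in these comparisons. In PL against EL, 10 of 17 probes from 7 genes passed the limit on p, 7 higher and 3 lower at P2, against 19.7% of all probes (9.7% higher and 10.0% lower). In PH against EH, 8 probes from 7 genes passed, 7 higher and 1 lower, against 17.5% of all probes (9.12% higher and 8.37% lower). Both limits were met by 2 probes in PL against EL, both higher, where 3.75% of all probes met them (1.6% higher and 2.15% lower). In PH against EH, 2 were higher and 1 lower, where 3.39% of all probes met both limits (1.3% higher and 2.1% lower). Groups did not overlap for 9 and 10 of 17 probes, against 20.9% and 24.5% of all probes. Among all detected probes, 44.4% and 38.5% passed the limit on p, and among the 14 detected member probes 10 and 8. Fibroblast and mesenchymal markers were lower at P2, 7 of 8 in PL against EL and 8 of 8 in PH against EH, with summed signals of 523 to 1627 per PL and 545 to 801 per PH sample, below those of EL and EH, and the brightest probe being that of *Col1a2*. Endothelial markers were lower too, 2 and 6 of 8, and erythroid ones, 2 and 3 of 4. Smooth muscle and pericyte markers were lower, 5 and 6 of 7, and leukocyte markers, 1 and 5 of 6, whereas 6 and 3 of 8 pan-cardiomyocyte markers were higher. The part of these cells in the stage comparisons was not tested. Each stage comparison shares its groups with the comparisons of fractions.

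The T-type genes moved in opposite directions with age. *Cacna1g* was higher at P2 in both fractions, by 2.67 ± 0.26 in PL against EL (6.36-fold, adjusted p = 6.14e-06) and by 2.40 ± 0.26 in PH against EH (5.27-fold, adjusted p = 2.06e-05). Probe 2 gave 2.23 and 1.78. The lowest P2 signal of probe 1, 902, was above the highest embryonic signal, 376. Probe 1 of *Cacna1h* was lower at P2, by a change of -1.47 ± 0.16 in PL against EL (2.77-fold, adjusted p = 1.19e-05) and -2.04 ± 0.16 in PH against EH (4.11-fold, adjusted p = 8.87e-07). Its highest P2 signal, 156, was below its lowest embryonic signal, 328. The dim probe 2 gave -1.02 and -0.76 with overlapping groups and did not pass (adjusted p = 0.452 and 0.613).

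*Cacna1c* rose from EL to PL by 1.56 ± 0.24 (2.95-fold, adjusted p = 0.000308) and from EH to PH by 1.05 ± 0.24 (a fitted 2.06-fold, adjusted p = 0.00738). The latter fold is not exact, since sample 6 of EH was not well above background. In the high cells the ranges overlapped, since sample 5 of PH (26.4) lay below sample 2 of EH (28.7). *Cacna1d* did not pass in either fraction. In PH against EH its probe 1 was higher by 0.74 ± 0.28 without overlap (adjusted p = 0.0894). *Cacnb2* rose by 1.36 ± 0.14 in the low cells (2.57-fold, adjusted p = 7.4e-06) and by 0.63 ± 0.14 in the high cells (1.55-fold, adjusted p = 0.00503). *Cacna2d1* rose by 1.09 ± 0.08 (2.12-fold, adjusted p = 2.85e-07) and by 0.47 ± 0.08 (1.39-fold, adjusted p = 0.000546). The second probes of both genes passed in the low cells, *Cacnb2* with 0.88 ± 0.29 (adjusted p = 0.0464) and *Cacna2d1* with 0.73 ± 0.17 (adjusted p = 0.00736), and gave 0.62 and 0.31 in the high cells without passing. That of *Cacnb2* missed the limit in 14 of 16 fits with 1 sample left out, and was 0.57 without sample 4 of PL, which had the highest signal, 261. *Cacnb1* rose in the high cells by 0.87 ± 0.18 (adjusted p = 0.00287), whereas in the low cells the change was 0.38 ± 0.18 (adjusted p = 0.178).

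*Cacnb3* moved apart in the 2 fractions. It fell from EL to PL by a change of -1.33 ± 0.16 (2.51-fold, adjusted p = 3.74e-05) and rose from EH to PH by 0.75 ± 0.16 (1.69-fold, adjusted p = 0.00438). *Cacna2d2* fell in the low cells by a change of -1.27 ± 0.25 (2.42-fold, adjusted p = 0.00219). In the high cells its change was -0.69 ± 0.25 without overlap, and it missed the limit over all probes (adjusted p = 0.0827).

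**Figure D3:**
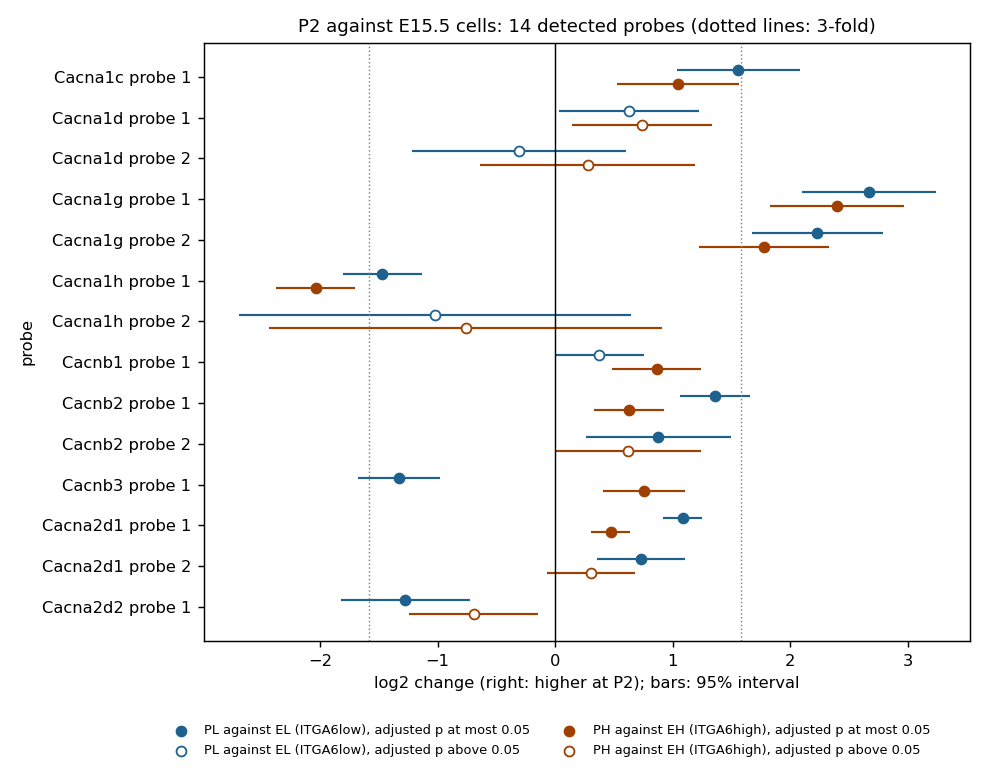
Log2 change of P2 against E15.5 cells within the ITGA6low and the ITGA6high fraction for the 14 detected probes, with 95% intervals of the limma fit. Filled points have an adjusted p of at most 0.05 and dotted lines mark 3-fold. Cacna1g lies to the right of 3-fold in both fractions, Cacna1h probe 1 to the left of 0 in both, and Cacnb3 on opposite sides of 0.

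The order of the 4 groups, read from probe 1, differed between the genes. From the highest to the lowest mean of the log2 signals it was PL, PH, EL, EH for *Cacna1c*, *Cacna1g* and *Cacna2d1*. In *Cacna1c* PL stood apart from the 3 other groups, which overlapped with their neighbours. In *Cacna1g* both P2 groups stood apart from both embryonic groups, and in *Cacna2d1* only the embryonic groups overlapped. *Cacnb2* followed PL, PH, EH, EL, with EH and EL overlapping. For *Cacnb3* the order was PH, EH, EL, PL and for *Cacna2d2* EH, PH, EL, PL, in both genes without overlap of neighbours. *Cacna1d* ran PH, EH, PL, EL, and PH alone stood apart. *Cacnb1* ran PH, PL, EH, EL, where PH stood apart, and *Cacna1h* EH, EL, PL, PH, where PL and PH overlapped. The second probes did not all keep these orders, since *Cacna1d* ran PH, EH, EL, PL, *Cacnb2* PL, PH, EL, EH and *Cacna1h* EL, EH, PL, PH, in each with overlap of all neighbours.

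Of the other 17 genes of the channel family, 5 were detected by their brightest probe. *Cacng6*, the gene of a γ subunit, had 100.02 ± 12.1 for EL and 47.2 ± 11.7 for EH, a change of -1.10 ± 0.38 (adjusted p = 0.11). In PL it had 319 ± 169.8 and in PH 12.7 ± 5.11, well above background on no PH microarray, so that PL was at least 16.9-fold higher (adjusted p = 1.67e-06). *Cacna1s*, the α1 gene of skeletal muscle, was at 201 ± 17.2 in PL and 44.8 ± 17.8 in PH, a change of -2.26 ± 0.26 (adjusted p = 3.4e-05), and at 76.7 ± 8.54 in EL and 46.4 ± 12.4 in EH (adjusted p = 0.106). *Cacna2d3*, another α2δ gene, was higher in both high fractions, by 1.64 ± 0.28 at E15.5 (adjusted p = 0.00173) and 2.37 ± 0.28 at P2 (adjusted p = 4.47e-05). It was well above background on 2 of 4 EH and 4 of 4 PH microarrays and on none of EL and PL, which leaves at least 1.98-fold at P2 and at least 1.06-fold at E15.5. *Cacna1a* and *Cacna1i*, also detected, did not pass between the fractions. With *Cacna2d3* higher and *Cacng6* and *Cacna1s* lower, 1 and 2 of the 17 passed in PH against PL, and 1 and 0 in EH against EL. In PL against EL 2 were higher and 0 lower, and in PH against EH 2 and 1. Of all probes, 11.6% passed in PH against PL, 8.1% in EH against EL, 19.7% in PL against EL and 17.5% in PH against EH. The other 12, among them the N-type pore gene *Cacna1b* and the β gene *Cacnb4*, were not detected. The median change of the 5 detected genes was -0.59 in EH against EL and -0.80 in PH against PL, beside -0.05 and -0.02 over all detected probes.

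Of 30 regulators and partners of the channels, 25 were detected. In EH against EL, 5 were higher and 3 lower, and in PH against PL 6 and 4. In PL against EL, 10 were higher and 4 lower, and in PH against EH 12 and 5. Under 75th percentile scaling the counts were 1 and 3, 4 and 4, 7 and 4, and 9 and 4. The calls lost between the fractions were *Calm2*, *Ppp3ca*, *Prkar1a* and *Rgs2* in EH against EL (adjusted p = 0.529, 0.0704, 0.322 and 0.134) and *Akap5* and *Prkacb* in PH against PL (0.0723 and 0.866). Over all probes 8.1% and 11.6% passed between the fractions, and 19.7% (PL against EL) and 17.5% (PH against EH) between the stages. Of all detected probes, 18.7% and 26.2% passed between the fractions and 44.4% and 38.5% between the stages. The list's median changes of 0.10 and -0.01 stand beside -0.05 and -0.02 over all detected probes. *Camk2b*, a subunit gene of the calmodulin-dependent kinase that phosphorylates the channel, was at 129 ± 20.0 in EL and 400.2 ± 9.91 in EH, higher by 1.65 ± 0.11 (adjusted p = 6.55e-07). At P2 it had 324 ± 12.7 in PL and 400.1 ± 53.2 in PH (adjusted p = 0.119). *Stac2*, whose product binds L-type channels, was well above background on 3 EL microarrays (48.9 ± 27.2) and on none of EH (3.88 ± 0.789), so that EL was at least 3.50-fold higher (adjusted p = 0.00037). *Rrad*, a small G protein gene whose product inhibits the L-type channel, was higher in PH (1952 ± 136) than in PL (1316 ± 149.9), by 0.57 ± 0.10 (adjusted p = 0.00165). In EL and EH it had 1286 ± 60.3 and 1436 ± 182 (adjusted p = 0.526).

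Of 12 genes of the dyad, where the channels face the calcium release channels, and of membrane scaffolds, 12 were detected. In EH against EL, 3 were higher and 0 lower, and in PH against PL 3 and 1, with median changes of 0.08 and 0.23. Under 75th percentile scaling it was 1 and 0, and 2 and 1, since *Casq2* and *Dysf* missed the limit in EH against EL (adjusted p = 0.278 and 0.323) and *Trdn* in PH against PL (0.683). Without sample 6 of EL, 1 was higher in EH against EL, and without sample 6 of EH 4 were. *Fkbp1b*, which encodes a ryanodine receptor binding protein, was higher in PH (1117 ± 81.7) than in PL (328 ± 59.7), by 1.78 ± 0.11 (adjusted p = 1.15e-07), and had 475 ± 14.04 for EL and 619 ± 57.8 for EH (adjusted p = 0.0563). *Bin1*, a membrane-bending protein gene known from T-tubules, was higher in EH (108 ± 65.6) than in EL (28.6 ± 11.1), by 1.77 ± 0.42 (adjusted p = 0.0158), and was not well above background at P2. *Ryr2*, the release channel gene, gave 1115 ± 69.8 for EL, 1062 ± 68.8 for EH, 3248 ± 533 for PL and 2501 ± 216 for PH, lower in PH by a change of -0.37 ± 0.11 (adjusted p = 0.0422). *Jph2*, which encodes junctophilin-2, had 246 ± 22.3, 267 ± 58.6, 504 ± 109 and 610.3 ± 154 in the same groups and did not pass between the fractions. With age, 8 of the 12 genes were higher in PL than in EL and 2 lower, and 9 were higher in PH than in EH and 1 lower. *Ryr2* was higher by 1.53 and 1.23 and *Jph2* by 1.01 and 1.18. Of all detected probes, 18.7% passed the limit in EH against EL and 26.2% in PH against PL. The shares were 44.4% in PL against EL and 38.5% in PH against EH.

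**Figure D4:**
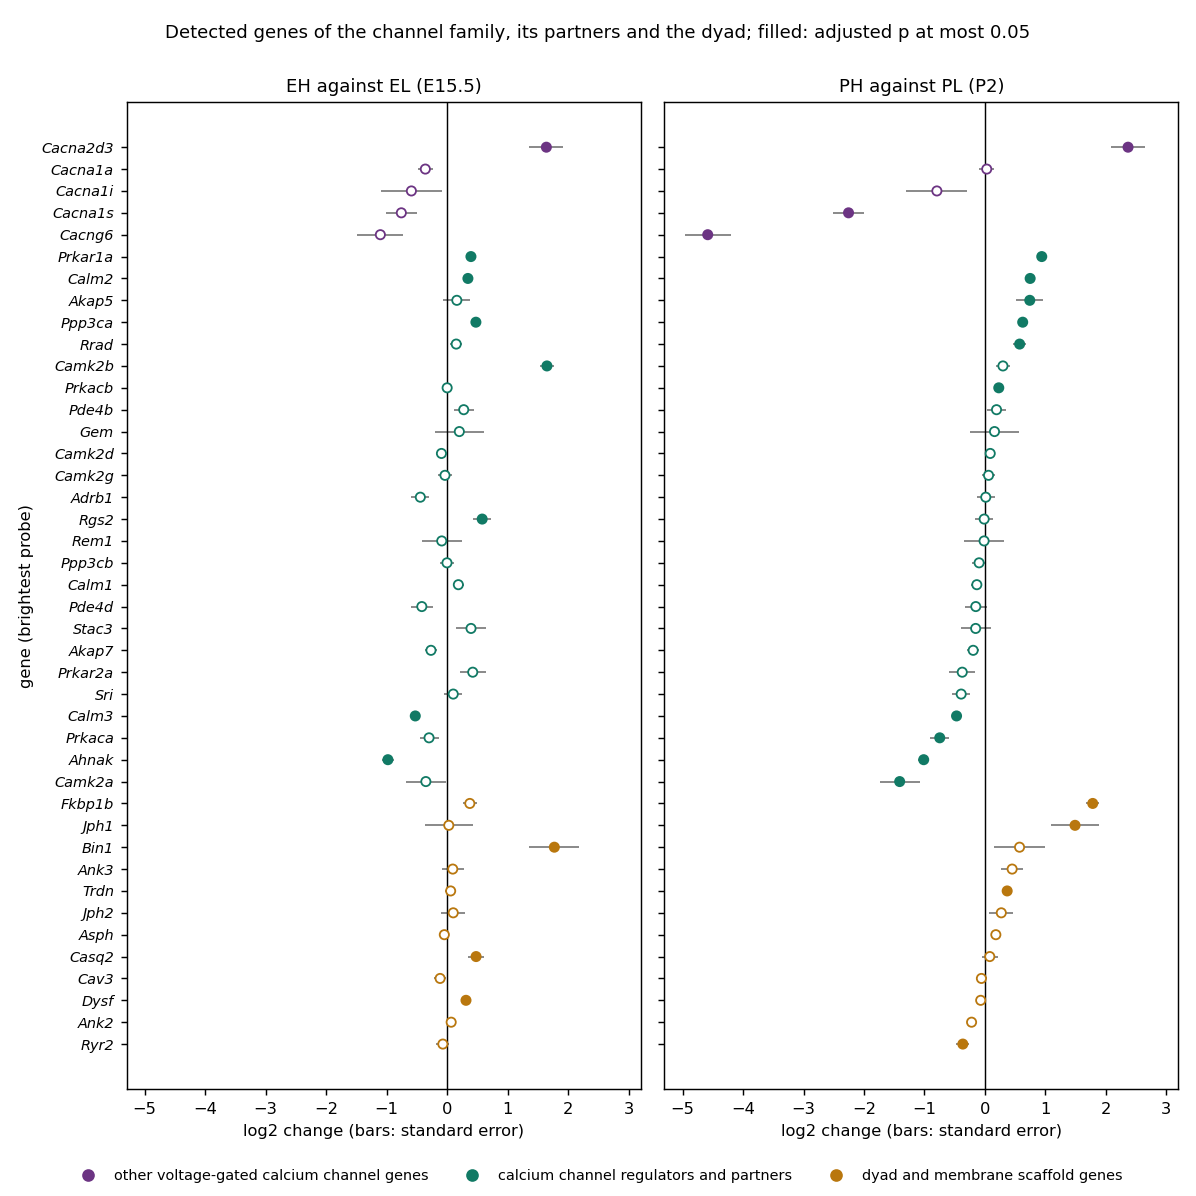
Log2 change (bars, SE) of ITGA6high against ITGA6low cells at E15.5 (left) and P2 (right) for the detected other genes of the channel family (the 9 subunit genes left out), of channel regulators and of the dyad, by their brightest probe. Filled points have an adjusted p of at most 0.05. At P2 Cacng6 and Cacna1s lie farthest left and Cacna2d3 farthest right, and at E15.5 Bin1, Camk2b and Cacna2d3 lie farthest right, where the points of Cacna2d3, and that of Cacng6 at P2, are fitted values against a group not well above background. The same holds for Jph1 at both stages, and at P2 neither group was well above background for Rem1 and Bin1.

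Which genes had the profile most like that of each subunit was described with Pearson's r over the 16 microarrays, among the brightest detected probes of 13045 genes. The microarrays fall into the 4 groups, which all these values share. For *Cacna2d2* the 3 most alike were *Gprin3* (r = 0.988), *Tle3* (0.985) and *Nr2f2* (0.980), the last being the gene of the atrial transcription factor COUP-TFII. For *Cacna1g*, *Ryr2* came first (0.979), followed by *Vamp1* and *Fbrsl1*. For *Cacna2d1* they were *Sucla2* (0.981), *Txnip* (0.980) and *Idh3b* (0.979), and for *Cacnb2* *Slc25a20* (0.974), *Amy1* and *Lyrm5*. For *Cacnb3* they were *Frmpd1* (0.983), *Nab2* and *Rnase4*, for *Cacna1d* *Akap13* (0.9765), *Adamts19* and *Ssr3*, for *Cacna1c* *Dnajb2* (0.964), *Sirt5* and *Coq5*, and for *Cacna1h* *Gprasp2* (0.971), *Mtmr7* and *Efnb2*. For *Cacnb1* the most alike was *Arl5c* (0.962), a gene within 10 kb of it in RefSeq's annotation, and *Hint1* (0.919) was also among the 3.

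*Cacna2d2* had a single start in the RefSeq promoter table (build GRCm38.p6), and its 250 bases before that start are shown as the regulatory sequence of the subunit that differed most between the fractions. Capitals mark GGGCGG, the core of a GC box. The window lies at chr9:107399630-107399879 on the plus strand and has 74.4% G and C.
Cacna2d2 promoter: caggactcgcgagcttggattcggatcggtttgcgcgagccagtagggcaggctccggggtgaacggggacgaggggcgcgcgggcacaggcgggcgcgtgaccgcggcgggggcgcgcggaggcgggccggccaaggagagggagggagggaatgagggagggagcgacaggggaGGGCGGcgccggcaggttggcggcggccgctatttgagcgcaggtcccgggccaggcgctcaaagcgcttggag

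Both strands of all 13 listed windows, which cover 7 of the 9 genes, were searched for that GC box core, which 7 windows held, against 32.74% of the 32851 windows of the table. A nuclear receptor half-site, AGGTCA, is held by 14.02% of all windows and was in 0 of the 13.

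The letters of a GATA motif, AGATAA, occur in 9.988% of all windows and those of a T-box half-site, given by AGGTGT, in 11.83%. Of the 13 member windows 0 held either. *Cacna1g* and *Cacna1h* were not searched here. Such a match, or its absence, describes these letters in these windows and nothing about a factor.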

How the data were processed

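RNA of 16 sorted samples was amplified with T7 polymerase and hybridized to one-color Agilent mouse microarrays. Per the file headers, the scanner files hold signal intensities processed by Feature Extraction 10.7.3.1, already background-subtracted, with probe positions on mm9. The authors also deposited a table of quantile-normalized log2 values, which was used as an alternative. Processed signals were quantile-normalized here, log2-transformed and fitted with limma 3.58.1 (R 4.3.3) as 4 group means over all 16 microarrays, with Benjamini-Hochberg adjustment over 55681 probes. A probe was called at an adjusted p of at most 0.05 and, where stated, a 3-fold change. "At least" folds set the brighter group's mean against, per microarray, the higher of the lowest signal well above background and the dim probe's own. Every member probe was named, the brightest standing for a gene in the other lists, of which genes meeting both limits between fractions, *Rrad*, *Ryr2*, *Jph2* and *Bin1* were named. *Cacna1a*, *Cacna1b*, *Cacna1i*, *Cacnb4*, *Jph1*, *Rem1*, the cell type markers and the genes whose calls were lost under another scaling were named in addition, after their values were seen. Members and lists were chosen with earlier results of these data known.

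The paper reports 4 independent sorting experiments at each stage but does not tie the sample numbers to them. Whether equal sample numbers pair the fractions was not settled. Deviations from the group means correlated over detected probes with r = 0.255, 0.189, 0.450 and 0.379 for numbers 2, 3, 6 and 8 at E15.5, but over all probes with -0.0075, 0.019, 0.174 and 0.233. At P2 r was 0.375, 0.176, -0.031 and 0.542 over detected probes for numbers 2, 3, 4 and 5 and 0.206, 0.056, 0.014 and 0.261 over all. Alternatives were 75th percentile scaling, normexp background correction with an offset of 50, the deposited log2 values, detected probes alone, the methods' test (analysis of variance with a Tukey test), blocks for sample number and slide, and leaving out each microarray. The fitting was tested on simulated data. The labels do not say that samples came from separate litters, and p-values measure the spread between these samples. The number of microarrays limits precision. Promoter windows are RefSeq's (GRCm38.p6), and of 17 probes 15 had a RefSeq accession that carries the gene's symbol. A few genes of the lists and of the likeness ranking are not reported here.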

Additional observations from a re-analysis of the deposited data

Results flagged for a closer look

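For 2 probes the change between the ITGA6high and ITGA6low cells differed between the stages in a direct test. For *Cacnb3* the change at P2 minus that at E15.5 was 2.08 ± 0.23 (log2, SE, adjusted p = 0.00018 in the limma fit), with all samples of EH above all of EL and all of PH above all of PL. For *Cacna2d1* probe 1 it was -0.62 ± 0.11 (adjusted p = 0.00591), with all PH samples below all PL samples and with EL and EH overlapping. Dixon's criterion was applied to the log2 signals of the 48 groups of 4 samples that were well above background on all 4 microarrays, and in 0 of them did a single sample lie far from the others. On linear signals 1 of the 48 did, *Cacna1g* probe 2 in EL, where sample 2 stood above the others (ratio of gap to range 0.849). Chance alone gives about 1 in 20. The other 20 groups, which include the uneven *Cacna1h* probe 2 in PL and PH, were not well above background on all microarrays, and of these 2 passed the critical value on the log2 scale and 4 on the linear scale.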

How the results depend on the processing

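Of 31 changes of member probes that passed the limit on p (0.05), 28 kept their direction and the limit under every alternative run for them and 0 turned. In the stage comparisons the slide entered only as a correlation between its microarrays (-0.057), since no slide held both stages. That alternative cannot tell a change of stage from one of slide. Scaling to the 75th percentile gave a median change over all probes of -0.18 in EH against EL, -0.14 in PH against PL and 0.19 in both stage comparisons, which lay -0.16, -0.14, 0.17 (PL against EL) and 0.16 (PH against EH) from the quantile-normalized medians. Under it 1 probe passed in the test of stage dependence in place of 2, since *Cacna2d1* probe 1 gave -0.59 (adjusted p = 0.119). With normexp, whose offset shrinks changes of dim probes by construction, the probes past both limits numbered 1 in place of 2 in EH against EL, 2 in place of 3 in PH against PL, 1 in place of 3 in PH against EH and 0 in place of 1 for stage dependence, where 4 passed the limit on p. Past that limit with normexp and with detected probes alone came *Cacna1d* probe 1 (adjusted p = 0.0125 and 0.0375) and *Cacna2d2* (0.0136 and 0.0345) in PH against EH. So did *Cacna1d* probe 2 in PH against PL (0.0167 and 0.0345) and *Cacnb2* probe 1 for stage dependence (0.0215 and 0.0279). Normexp also brought *Cacna1c* for stage dependence (0.0479), *Cacna1h* probe 1 in EH against EL (0.0324) and *Cacna2d1* probe 2 in PH against PL (0.0344). With the slide as a block, 1 probe in place of 2 passed both limits in EH against EL. Leaving out single samples gave 1 to 2 there, the lower without sample 6 of EL or sample 2 of EH, where *Cacna1d* fell short of 3-fold. Over all probes, each of the 4 PL samples correlated best with the PH sample of its own number, and 2 of 4 EL samples did with EH. The replicate block left 2 probes past both limits and 3 past the limit on p in EH against EL, and raised the latter from 8 to 10 in PH against PL, where *Cacna1g* probe 1 (adjusted p = 0.0056) and *Cacna2d1* probe 2 (0.0163) joined. *Cacnb2* probe 2 in PL against EL (0.88, adjusted p = 0.0464) missed the limit in the methods' test (adjusted p = 0.0531) and in 14 of 16 fits with 1 sample left out, which gave 0.57 to 1.16 with adjusted p from 0.00425 to 0.122. It passed without sample 2 or sample 3 of PL, and the change was smallest without sample 4 of PL. *Cacna1g* probe 2 in PH against PL missed the limit without sample 3 of PH (adjusted p = 0.0519). Leaving out 1 sample brought other changes past the limit, *Cacna1c* in EH against EL without sample 2 of EH or 5 of PH (adjusted p = 0.0105 and 0.0468), *Cacna2d2* in PH against EH without sample 4 of PL or 2 of PH (0.027 and 0.03), *Cacnb1* in PL against EL without sample 5 of PL (0.0295), *Cacna1d* probe 1 in PH against EH without sample 2 of PL (0.0477), *Cacna1d* probe 2 and *Cacnb2* probe 2 in PH against PL without sample 2 of EH and sample 2 of PL (0.0366 and 0.0404), and, for stage dependence, *Cacna1h* probe 1 without sample 5 of PL (0.049) and *Cacnb2* probe 1 without sample 3 of EL (0.0456).

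Changes that turned were all above the limit on p. *Cacna1h* probe 2 in PH against PL gave 0.016 with normexp. With 1 sample left out, the range was -0.72 to 0.021 for *Cacna1h* probe 2 in EH against EL, -0.74 to 0.59 in PH against PL and -0.31 to 1.02 for its stage dependence. It was -0.077 to 0.35 for the stage dependence of *Cacna1d* probe 1, -0.63 to 0.036 for *Cacna1d* probe 2 in PL against EL, -0.54 to 0.051 for the stage dependence of *Cacnb2* probe 2 and -0.20 to 0.044 for *Cacna2d1* probe 2 in EH against EL. The causes were not tested. Of 434 values of single probes under other alternatives 415 kept their direction and their side of the limit on p, and of 1120 with 1 sample left out 1080 did. Probes near background, such as *Cacna1h* probe 2 and *Cacna1d* probe 2, have the least certain values.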
